A study of Mus musculus with 6 samples.

Results

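hAT-Charlie elements are DNA transposons, and their RNA was compared between wild-type and β-actin knockout mouse embryonic fibroblasts. The members were all rows of the deposited count files with the class DNA and the family hAT-Charlie, except those with names starting UCON or Eulor. The family had 81 rows, 3 of them with UCON names, which left 78 members of 1336 rows in all. Each row is a repeat subfamily, and its value is the sum of reads over all its copies in the genome. Wild-type (WT) fibroblasts were compared with fibroblasts described as β-actin knockout or Actb-/- (KO), with 3 libraries of each genotype. Both genotypes are labelled BALB/c and come from embryos 10.5 days old. The series calls the samples biological replicates, and the labels do not say whether they came from separate embryos. Neither the Cre or targeting method of the knockout nor the number of cell lines is given in the sources used here. Protein-coding genes have no row in the files, so neither the loss of Actb nor the fibroblast label could be checked.

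The hAT transposons move by cut and paste: a transposase made by an intact element recognises short inverted repeats at the ends of the element, excises it and inserts it elsewhere. Charlie and Cheshire are names of elements that carry or derive from transposase-coding copies. Many members with MER names (medium reiterated repeats) are short copies that lack a working transposase and were moved by that of a relative. Most of these subfamilies are old and shared between mammals, whereas URR1A, URR1B and RCHARR1 are rodent elements. Their copies are fixed remnants, many of them in introns and between genes. Reads from a copy inside a transcript cannot be told apart here from transcription that starts in the repeat, and fewer cells with a transcript cannot be told apart from less RNA per cell.

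Libraries held 7708630 to 19288620 counts, of which ribosomal RNA (rRNA) took 32.4% to 84.8%. Members held 30589 to 91037 counts per library, and the median member had 87.5 to 276.5. Levels are given as normalized CPM, which are counts over the effective library size from TMM, the trimmed mean of M-values. TMM sets the scale by the bulk of repeat rows, so a change of all repeats together would not be seen. TMM factors ran from 0.423 to 3.13. Members differ in length and copy number, so their levels are not compared with each other.

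The summed RNA of the 78 members was close in both genotypes. It stood at 3777, 3978 and 3906 normalized CPM in WT replicates 1 to 3 and at 3849, 3703 and 3535 in KO replicates 1 to 3. KO replicate 1 lay above WT replicate 1, so the groups overlapped. The mean was 3887 ± 102 (SD, n = 3) in WT and 3696 ± 157 in KO, a ratio of 0.951. No test was made of this sum.

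As a share of the counts outside structural RNA (rRNA, tRNA and other small RNA rows), the members took 2.23%, 1.24% and 1.71% in WT replicates 1 to 3 and 1.22%, 2.10% and 1.58% in KO replicates 1 to 3. The order of the 6 libraries by this share was the reverse of their order by rRNA, which filled 32.4%, 84.1% and 73.7% of counts in WT and 84.8%, 52.9% and 77.0% in KO. The normalized level showed no such order over the 6 libraries. From least to most rRNA it rose in WT, at 3777, 3906 and 3978 in replicates 1, 3 and 2. In KO it did not, at 3703, 3535 and 3849 in replicates 2, 3 and 1. The part of rRNA in the shares was not tested.

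**Figure D1:**
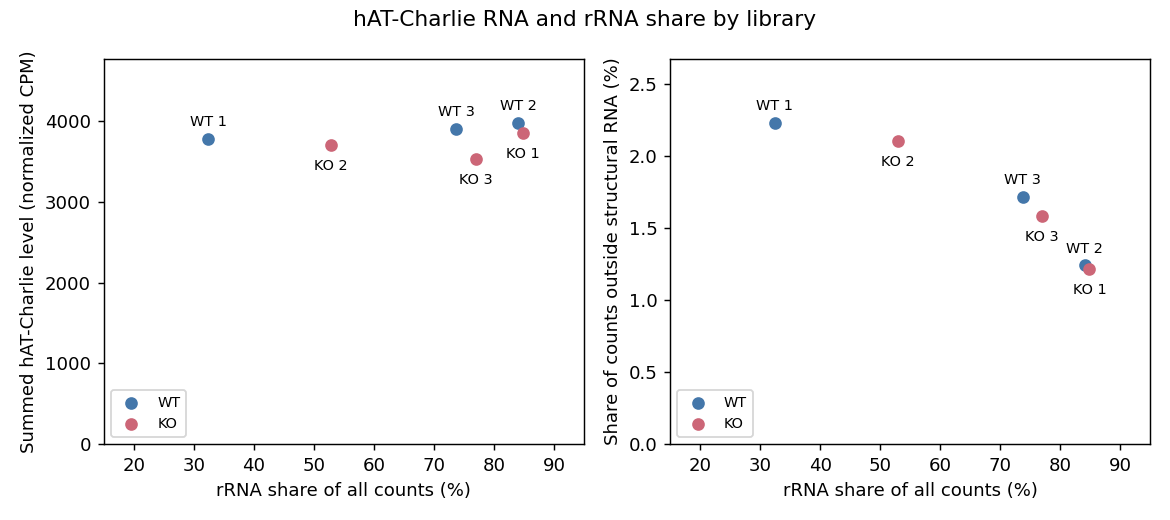
Summed level of the 78 hAT-Charlie members in normalized CPM (left) and their share of counts outside structural RNA in percent (right) against the rRNA share of all counts in percent, 1 point per library. The level lies between 3535 and 3978 in all 6 libraries, while the share goes from 2.23% in WT replicate 1, with the least rRNA, to 1.22% in KO replicate 1, with the most.

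A few rodent and MER subfamilies held most of the members' counts, in nearly equal proportions in each library. Over the 6 libraries, 10 members took 63.1% of the counts, and 29 were needed to pass 90%. In order of counts the 10 were URR1A, URR1B, MER20, MER58A, RCHARR1, MER5A, MER33, MER3, MER58B and RMER30. Their joint share lay between 62.5% and 63.5% in every library. The rodent elements URR1A, URR1B and RCHARR1 together averaged 31.5% ± 0.211 in WT and 32.0% ± 0.320 in KO (SD, n = 3), and ranged from 31.4% to 32.3%, with the genotypes overlapping. URR1A alone took 13.2%, 13.1% and 13.6% in WT and 13.3%, 13.9% and 13.9% in KO.

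The proportions of the 76 tested members differed between replicates by more than counting error. For pairs of libraries of one genotype, chi-square over its degrees of freedom was 1.29 to 2.23, where counting error alone gives about 1. For the 38 tested rows of hAT-Tip100, a related transposon family, it was 1.70 to 4.77, and for the 50 tested rows of TcMar-Tigger, 1.37 to 2.52. These ratios were not tested against each other, and they grow with depth.

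**Figure D2:**
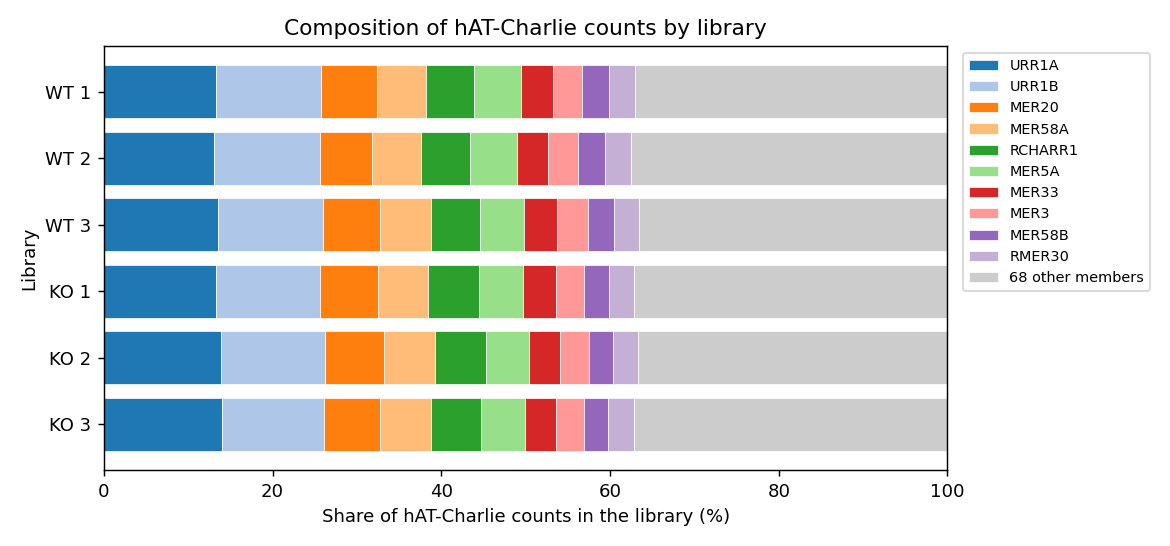
Share of hAT-Charlie counts in percent held by the 10 members with the most counts and by the 68 others, with 1 bar for each of the 6 libraries. URR1A, URR1B and RCHARR1 together take between 31.4% and 32.3% in each, and the 10 together between 62.5% and 63.5%.

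Within the DNA class, the members took a larger share in KO, but not once a single row outside the family was left out. They held 59.4%, 58.0% and 58.3% of DNA class counts in WT replicates 1 to 3 and 60.2%, 61.3% and 60.5% in KO replicates 1 to 3, without overlap. The hAT-Tip100 element FordPrefect, the DNA class row with the most counts, fell from 712 ± 67.8 to 430 ± 65.9 normalized CPM (edgeR adjusted p = 0.0132). With FordPrefect left out, the members held 66.0%, 65.3% and 65.4% of the class in WT replicates 1 to 3 and 65.3%, 65.3% and 65.1% in KO replicates 1 to 3. The KO shares were then no longer the higher ones, and the nearest libraries, WT replicate 2 and KO replicate 1, were equal to 3 digits. FordPrefect was singled out after its values were seen.

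Of the 78 members, 76 had enough counts to be tested. The other two, Charlie30b and Charlie7b_Mars, had at most 7 and 2 counts in any library. In KO, 1 member rose and 3 fell (edgeR quasi-likelihood test over all 1193 tested rows, Benjamini-Hochberg adjusted p below 0.05). Charlie22a rose to 1.77 times its WT level, whereas MER102b, Charlie8 and Charlie6 fell to 0.787, 0.798 and 0.767 of theirs. That is 5.26% of members called, beside 5.78% of all tested rows (2.18% higher and 3.6% lower), so the family's share of calls lay near the background. At an unadjusted p under 0.05 there were 2 members higher and 14 lower, 21.1% of the 76, beside 20.9% of all rows (9.56% higher and 11.3% lower). The pooled shares were alike, but by direction members leaned lower (2 higher against 14 lower) more than all rows did (114 against 135).

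Most members differed little, as did most rows. The log2 fold changes had a median of -0.04, beside 0.01 for all tested rows. Within 1.2-fold lay 54 of 76 members, beside 859 of all 1193 tested rows. Below 0 there were 49 of 76 members, 64.5%, beside 47.7% of all rows, and above 0 there were 27, beside 52.3% of all rows. Scaled by total counts, 92.1% of members and 90.6% of all rows lay below 0. With 1 library left out, the share of members below 0 ran from 53.9% without KO replicate 3 to 67.1% without KO replicate 1. In both of these runs 49.7% of all rows lay below 0. In 15 members all KO libraries lay below all WT libraries, and in 4 all lay above. Together that is 25.0% of tested members, beside 25.8% of all rows (160 rows or 13.4% below, and 148 or 12.4% above). Here too the pooled shares were alike, and the members leaned lower. Members share ancestry and may share reads, so they are not independent measurements, and no test over the list was made.

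**Figure D3:**
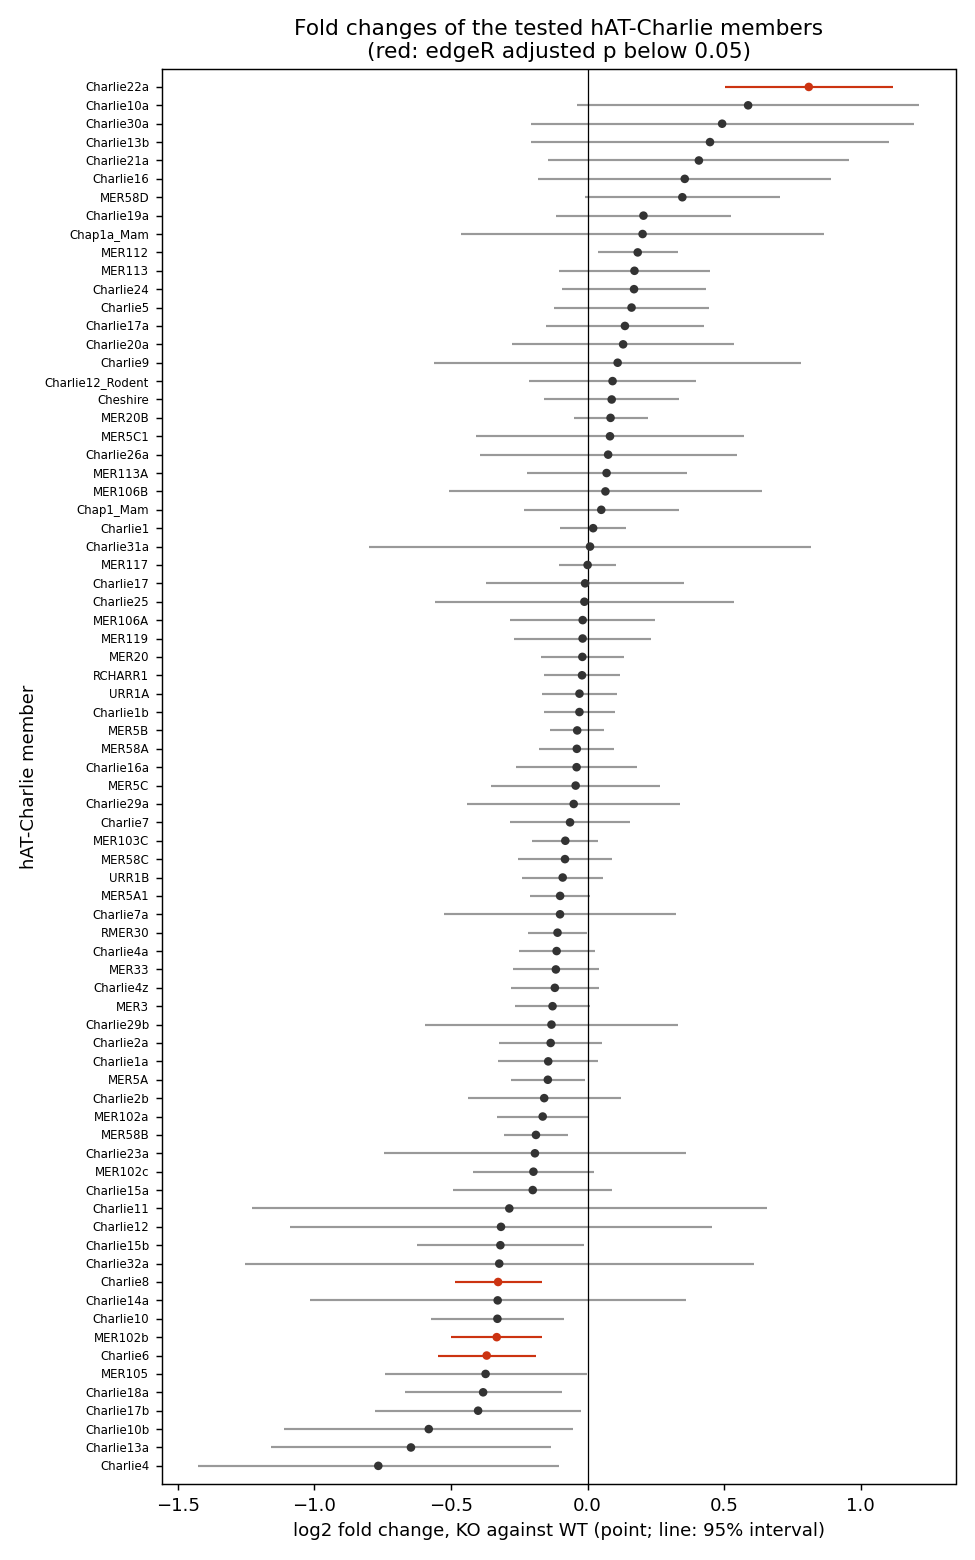
The log2 fold change of KO against WT (horizontal axis) with its 95% interval for each of the 76 tested members, ordered by fold change, with the 4 past the threshold in red. Charlie22a stands at 0.81, and the 3 members that fell lie between -0.33 and -0.37 among others with wider intervals.

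Charlie22a, an old Charlie element, was the member with the largest difference past the threshold. It had 10.1, 11.4 and 11.5 normalized CPM in WT replicates 1 to 3 and 23.5, 17.8 and 17.1 in KO replicates 1 to 3, from 88 to 359 counts per library. Every KO library was above every WT library, and KO replicate 1 was the highest. The mean went from 11.0 ± 0.774 (SD, n = 3) to 19.5 ± 3.51, which is 0.81 on the log2 scale, with an interval (95%) of 0.50 to 1.12 (standard error 0.13, edgeR adjusted p = 0.0132). The call held when any single library was left out, at 0.68 to 0.88 (edgeR adjusted p = 0.0143 to 0.0463), and 0.68 was the value without KO replicate 1. Without both WT replicate 1 and KO replicate 2, those lowest in rRNA, it was 0.81 and missed the threshold (edgeR adjusted p = 0.0841). Scaled by total counts, which moved the median of all rows to -0.36, it was 0.43. In that scaling 0 of 1193 rows passed, so the lost call is not particular to Charlie22a.

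MER102b, of a trio of MER102 subfamilies, fell. It had 57.5, 69.1 and 58.3 normalized CPM in WT and 47.3, 49.0 and 49.2 in KO. The KO libraries were close together and all below WT, and WT replicate 2 was the highest. The difference was -0.33 on the log2 scale (standard error 0.07, edgeR adjusted p = 0.0368). Its relatives MER102a and MER102c also had values below 0, at -0.16 and -0.20, but missed the threshold (edgeR adjusted p = 0.246 and 0.293). Its call was lost when WT replicate 3 was left out (-0.36), and also when KO replicate 1 (-0.32), 2 (-0.34) or 3 (-0.35) was. It was also lost in limma-voom (-0.31, adjusted p = 0.0629) and without structural RNA rows (-0.33, edgeR adjusted p = 0.0510). Scaled by total counts, where 0 of 1193 rows passed, MER102b was at -0.63.

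Charlie8 had 34.0, 36.8 and 32.6 normalized CPM in WT and 29.5, 26.6 and 26.4 in KO, and Charlie6 had 22.3, 25.9 and 24.3 in WT and 19.0, 19.0 and 17.7 in KO. In both, every KO library was below every WT library. Charlie8 fell by 0.33 and Charlie6 by 0.37 on the log2 scale, with standard errors of 0.07 and 0.08 (edgeR adjusted p = 0.0330 for both). Charlie8 kept its call without KO replicate 1 (-0.38) and lost it when any other library was left out, at -0.34, -0.29 and -0.35 for WT replicates 1 to 3 and -0.30 and -0.31 for KO replicates 2 and 3. Charlie6 lost its call when WT replicate 2 or 3 was left out (-0.33 and -0.35), or KO replicate 2 or 3 (-0.39 and -0.34). Both missed the threshold in DESeq2 (adjusted p = 0.0549 and 0.0525), and Charlie6 also did in limma-voom (adjusted p = 0.0551). Scaled by total counts, where 0 of 1193 rows passed, Charlie8 and Charlie6 were at -0.71 and -0.67.

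**Figure D4:**
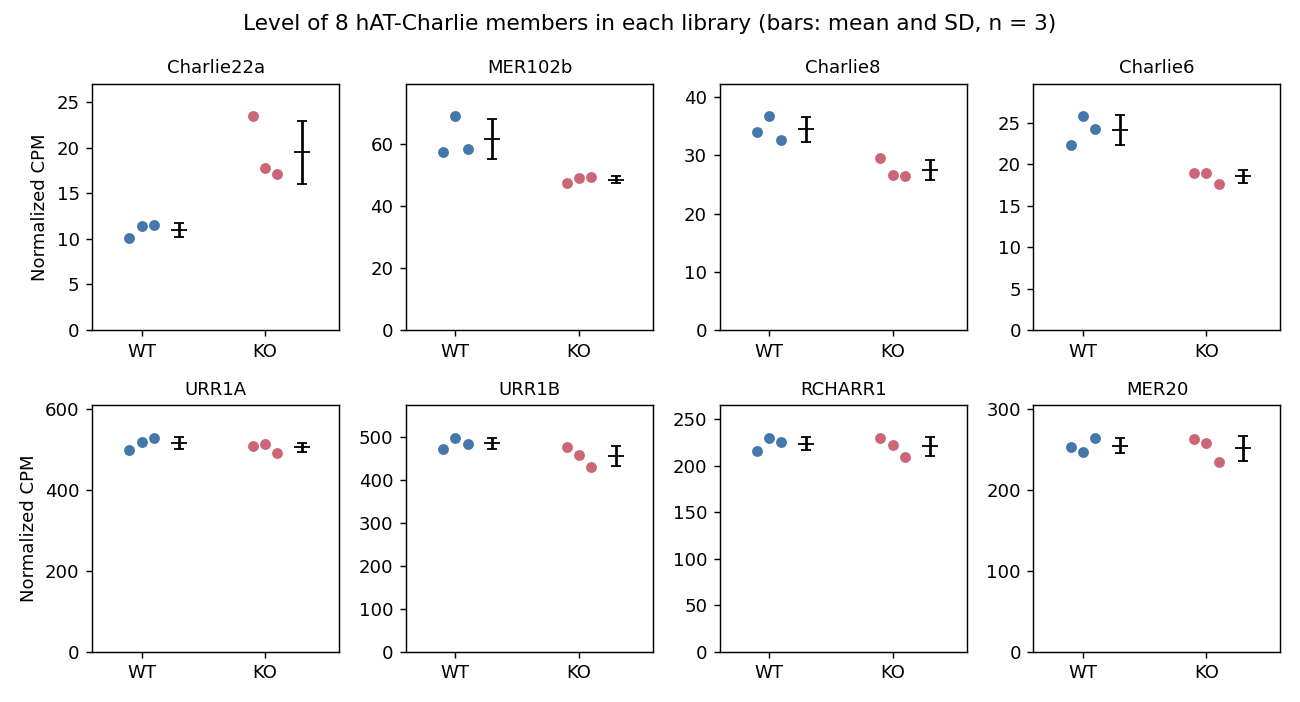
Normalized CPM of 8 members in each library (points, from replicate 1 on the left to 3 on the right; bars are mean and SD, n = 3), with vertical axes starting at 0. The upper row holds the 4 members past the threshold, whose genotypes do not overlap, and the lower row URR1A, URR1B, RCHARR1 and MER20, whose genotypes do.

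The rodent elements URR1A, URR1B and RCHARR1 did not pass the test, and their intervals were narrow. URR1A had 499.8, 519.9 and 530.4 normalized CPM in WT and 510.2, 515.4 and 493.0 in KO, a log2 fold change of -0.03 with a 95% interval of -0.17 to 0.11 (edgeR adjusted p = 0.840). URR1B had 470.7, 498.2 and 484.1 in WT and 476.9, 456.6 and 430.7 in KO, at -0.09 with an interval of -0.24 to 0.06. RCHARR1 had 216.0, 230.0 and 225.9 in WT and 230.4, 222.5 and 209.7 in KO, at -0.02 with an interval of -0.16 to 0.12. For each of the 3 the genotypes overlapped, and differences of about 1.2-fold or more lay outside the interval. RMER30, named as a rodent repeat too, was at 119 ± 2.31 in WT and 110 ± 4.52 in KO (SD, n = 3). Its KO libraries were all below WT, at -0.11 on the log2 scale, which missed the threshold (edgeR adjusted p = 0.238). Charlie12_Rodent, a Charlie row with rodent in its name, was above 0, at 0.09. Its genotypes overlapped, and its 95% interval was wider, from -0.21 to 0.40 (edgeR adjusted p = 0.748).

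Among the 25 members with MER names, all of them tested, none rose and MER102b was the 1 that fell (edgeR). That is 4% called, beside 5.78% of all tested rows. At an unadjusted p under 0.05 there were 1 higher and 4 lower, 20%, beside 20.9% of all rows. Both shares lay near the background. Their median was -0.04 on the log2 scale, and 17 values lay below 0. Above 0 lay 32%, beside 52.3% of all rows. MER20, a subfamily known from regulatory regions of endometrial cells, was at 254 ± 9.26 normalized CPM in WT and 251 ± 15.4 in KO (SD, n = 3). Its log2 fold change was -0.02, with a 95% interval of -0.17 to 0.13. The related MER20B had a value above 0, at 0.08. MER112 had 19.3, 19.1 and 18.3 normalized CPM in WT and 21.2, 21.7 and 21.5 in KO. All its KO libraries were above WT, but its value of 0.18 missed the threshold (edgeR adjusted p = 0.146), and it was -0.19 when scaled by total counts.

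The MER58 subfamilies differed in sign. MER58B had 120.8, 127.2 and 120.4 normalized CPM in WT and 112.7, 107.8 and 102.7 in KO, at -0.19, without overlap and short of the threshold (edgeR adjusted p = 0.0763). MER58A and MER58C were at -0.04 and -0.08, and MER58D, with 51 to 155 counts per library, was at 0.35 (edgeR adjusted p = 0.252). Differences between these rows were not tested. The MER5 subfamilies MER5A, MER5A1, MER5B and MER5C had values of -0.15, -0.10, -0.04 and -0.04, and MER5C1, with 29 to 91 counts, of 0.08. In MER5A and MER5A1 all KO libraries were below WT, and none of these rows passed (edgeR adjusted p = 0.210 for MER5A and 0.290 for MER5A1). MER33 was at -0.12 and MER3 at -0.13, and their genotypes overlapped.

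Of the 47 members with Charlie or Cheshire names, 45 were tested, and 1 rose and 2 fell, as given above. That is 6.67% called, near the 5.78% of all tested rows. At an unadjusted p under 0.05 there were 1 higher and 9 lower, 22.2%, beside 20.9% of all rows (9.56% higher and 11.3% lower). Above 0 lay 37.8% of their values, beside 52.3% of all rows. Their median log2 fold change was -0.06, with 28 values below 0, and the middle of their distribution was wider than that of the MER names, with quartiles of -0.32 and 0.11 against -0.13 and 0.07. The Charlie and Cheshire rows were also shallower, with a median of 118 counts per library on average against 774 for MER names. Charlie10 had 15.2, 18.7 and 19.0 normalized CPM in WT and 13.7, 13.5 and 14.3 in KO. Its KO libraries were all below WT, and its value of -0.33 missed the threshold (edgeR adjusted p = 0.120). It did pass without WT replicate 1, at -0.45, and with rRNA as a covariate, at -0.37. Its relatives had values of both signs: Charlie10a was at 0.59 and Charlie10b at -0.58, from 10 to 76 and 10 to 44 counts per library, and neither passed.

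The 3 Charlie4 rows were all below 0, with Charlie4 at -0.77, Charlie4a at -0.11 and Charlie4z at -0.12. Charlie4 had the lowest value of the family, from 22 to 85 counts per library, with a 95% interval of -1.43 to -0.11, and missed the threshold (edgeR adjusted p = 0.169). Charlie1, Charlie1a and Charlie1b were at 0.02, -0.14 and -0.03. Charlie17b, at -0.40, had the largest difference below 0 among members with a mean of at least 50 counts. It had 6.14, 5.33 and 5.78 normalized CPM in WT and 3.80, 4.97 and 4.18 in KO, without overlap, and missed the threshold (edgeR adjusted p = 0.212). Charlie21a, at 0.41, had an interval of -0.14 to 0.96 and a value of -0.02 when scaled by total counts. Cheshire, the element with its own name, was at 0.09, with overlapping genotypes.

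**Figure D5:**
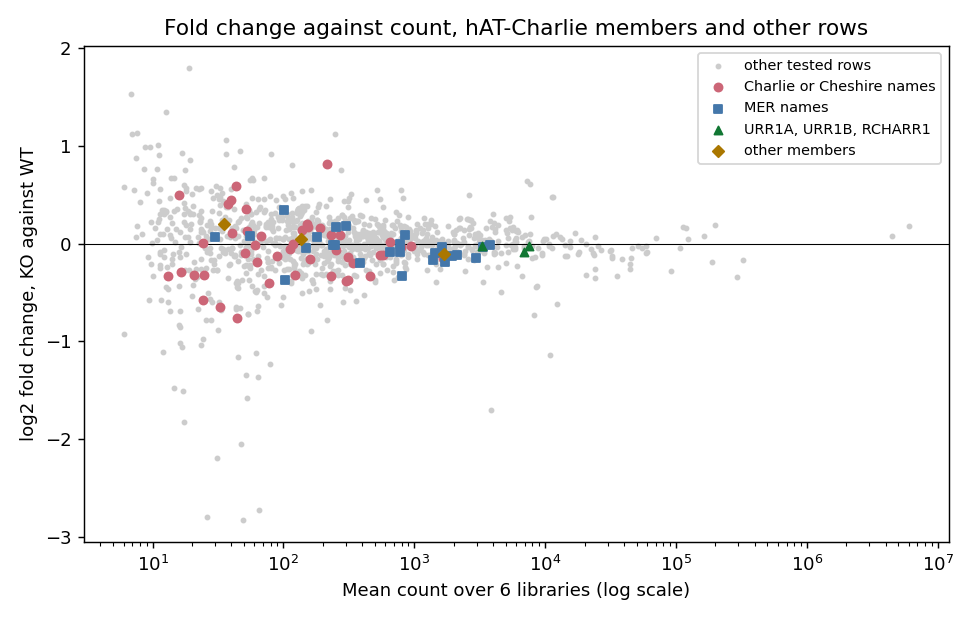
The log2 fold change of KO against WT against the mean count over 6 libraries (log scale) for the 76 tested members, marked by name group, and for the other tested rows in grey. Members with a mean under 50 counts spread from -0.77 to 0.59, and URR1A, URR1B and RCHARR1 lie between -0.09 and -0.02.

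The precision of a fold change went with depth. The 61 members with a mean of at least 50 counts had a median standard error of 0.11 on the log2 scale and held all 4 calls, 6.56% of them, beside 6.17% of all rows with such a mean. The 15 tested members below that mean had a median standard error of 0.29, and none was called (edgeR). At an unadjusted p under 0.05 there were 3 of them, 20%, all lower in KO. Of all 253 tested rows below that mean, 11 were called, or 4.35%, and 33 had an unadjusted p under 0.05, or 13.0% (11 higher and 22 lower).

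The other DNA transposons are the nearest relatives for comparison. Of the 158 tested rows of the DNA class outside the members, 3 rose and 4 fell, 4.43%, and the median was -0.01 on the log2 scale. Among the 38 tested hAT-Tip100 rows 1 rose and 1 fell (median 0.06), and among 50 TcMar-Tigger rows also 1 and 1 (median -0.01). Among the 20 tested rows of other hAT families 1 rose and 1 fell (median -0.09). None of the 8 hAT-Blackjack rows or the 20 other TcMar rows was called (edgeR), with 0 and 6 rows at an unadjusted p under 0.05. The other TcMar rows leaned lower as the members did, with a median of -0.13, 13 values below 0 and 7 above. Of their 6 rows at an unadjusted p under 0.05, 1 was higher and 5 were lower. The hAT-Tip100 rows had 24 values above 0 and 14 below. The hAT-Charlie counts of calls were not tested against these.

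Few rows followed the rRNA level past the threshold, and no hAT-Charlie member did. With the rRNA level as a covariate in edgeR, its term was past adjusted p 0.05 in 0 of 76 members, beside 20 of 1193 rows, or 1.68%. It was also past that threshold in 0 of 38 hAT-Tip100 rows and 0 of 50 TcMar-Tigger rows. The rRNA term had an unadjusted p under 0.05 in 3 members, 3.95%, beside 7.04% of all rows. Within each genotype, MER20B and MER113 had higher values in libraries with more rRNA, and Charlie25 and Charlie17b lower ones. Each pair is 2.63% of tested members, beside 5.87% of all rows with higher and 3.6% with lower values in that order. The 4 called members kept their calls with this covariate, with log2 fold changes of 0.75 for Charlie22a, -0.35 for MER102b, -0.34 for Charlie8 and -0.39 for Charlie6. That fit called more rows in all, 92 of 1193 or 7.71%, beside 69 or 5.78% without the covariate.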

How the data were processed

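Total RNA was depleted of rRNA with a TruSeq Ribo-Zero kit, per the labels' protocols. The submitters' processing notes name FastQC 0.11.5, Bowtie2 and Trimmomatic, and the builds mm10 and GRCm38. The sources used here do not name the repeat counter, its annotation or the use of strand. For each repeat row the authors deposited estimated counts, called fraction counts in the file names, without normalization, all of them whole numbers. They do not say how reads matching several subfamilies were divided, so similar rows may share reads.

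The analysis used edgeR 4.0.16 under R 4.3.3. Rows were filtered with filterByExpr, which kept 1193 of 1336, scaled with TMM and tested, KO against WT, with glmQLFTest (quasi-likelihood), adjusting p over all tested rows by Benjamini-Hochberg at 0.05. Standard errors and 95% intervals came from the test statistic and its degrees of freedom. P-values measure the spread between 3 libraries per genotype. The procedure was tested on simulated data. Named members were those called, the 10 with the most counts, the 5 with the smallest p in each direction, URR1A, URR1B and RCHARR1, and those with the largest rise and fall at a mean of at least 50 counts. Others were named by relation to these. The members, lists and alternatives were chosen with earlier results of these data known. Alternatives included DESeq2 1.42.0 and limma-voom (limma 3.58.1).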

Additional observations from a re-analysis of the deposited data

How the results depend on the processing

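Of 17 alternatives, those that kept the libraries and changed the filter or scaled by DESeq2 size factors kept all 4 member calls. Scaling by total counts left 0 of all 1193 tested rows called, and so 0 members higher, 0 lower and 0 other DNA rows. It put the median of members at -0.40, their total at -0.42, MER112 at -0.19 and Charlie21a at -0.023. DESeq2 and limma-voom each called 1 member lower (MER102b and Charlie8 respectively) and kept Charlie22a. Over all rows DESeq2 called 77, or 6.45%, and limma-voom 63, or 5.28%, beside 5.78% in the main fit. Without structural RNA rows MER102b was lost, and 41 of all 1124 rows tested in that run were called, or 3.65%. With a replicate block, 0 members were higher, 0 lower and 1 other DNA row was called, with Charlie22a at 0.82 (edgeR adjusted p = 0.0512). Calls over all rows went from 69 to 24 with that block. WT and KO libraries that share a number did not deviate together. Across rows they deviated in opposite directions for numbers 1 and 2 (r of -0.55 and -0.50), with r of 0.039 for number 3. Nothing in the labels pairs them. Leaving out each library in turn gave 0 to 3 members lower, 1 to 8 other DNA rows called, a median of members of -0.085 to -0.046, and values of -0.056 to 0.027 for MER20 and -0.057 to 0.012 for RCHARR1. With 1 library left out, calls over all rows ran from 22 (1.82%) without KO replicate 2 to 69 (5.59%) without KO replicate 1. Without both WT replicate 1 and KO replicate 2, 0 members were higher and 0 lower, 2 other DNA rows were called and the median of members was -0.10. Of all 1161 rows tested in that run, 9 were called, or 0.775%. The log2 ratio of the members' share of counts outside structural RNA was -0.08, and went from -0.30 without KO replicate 2 to 0.15 without WT replicate 1, within its spread of 0.41 between replicates. The cause of these differences was not tested.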
